A study of Caenorhabditis elegans with 2 samples.

Results

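The Sra superfamily is a group of nematode chemoreceptor genes made up of the sra, srab, srb and sre families. Its members were taken as the protein-coding genes of the Ensembl WBcel235 annotation whose symbol is sra-, srab-, srb- or sre- followed by a number, without sre-1. The rule found 123 of 19985 protein-coding genes, namely 35 sra, 23 srab, 12 srb and 53 sre genes. The symbols alone placed a gene in a family, and no protein sequences were compared.

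The data are ChIP-seq libraries, in which DNA pulled down with a protein is sequenced, for the transcription factor HLH-4 in L1 larvae of Caenorhabditis elegans. The animals were hermaphrodites of strain OP523, genotype unc-119(tm4063) III; wgIs523, in which an integrated transgene makes HLH-4 with GFP and FLAG at its C-terminal end. They had been synchronized by bleaching and starvation, were collected 6 hours later, and tagged protein was pulled from their sonicated chromatin with an anti-GFP antibody. Both libraries, biological replicates 1 and 2, belong to 1 group. There is thus no other condition to compare them with, and no test was run.

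The measurement has limits that touch every value given here. Whole larvae were used, so binding in a few neurons and binding in many other cells cannot be told apart. The protein measured is the tagged one made from the transgene, and a control library that the labels name as possible was not analysed here. The labels do not say whether the replicates came from separate cultures. The deposited ce11 lists hold 30000 ranked regions for each replicate and for the pooled replicates, and the optimal peaks that passed the authors' check of reproducibility, which are the pooled regions of highest signal value. The sources used here give no read counts, so the depth behind each value is unknown. Signal values are the authors', rank regions within 1 list and share no known scale between lists. A rank of 1 is the strongest region. In the pooled list signal values ran from 12.1 to 379.5 with a median of 15.9, and the optimal peaks started at 43.1. The tagged gene, hlh-4, had an optimal peak of its own at rank 370, and the strongest regions near its start ranked 4178 in replicate 1 and 178 in replicate 2. The transgene also carries hlh-4 sequence, and the part of these added copies in the ranks was not tested.

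Chemoreceptors of these families are G protein-coupled receptors with many near relatives in the genome, often in tandem arrays, and most are thought to act in ciliated sensory neurons that open to the outside. HLH-4 is a basic helix-loop-helix factor of the Achaete-Scute family, known for its part in the identity of the ADL nociceptive neurons and of their chemoreceptor genes. Factors of this family bind DNA in pairs, usually with an E protein such as HLH-2, at E-boxes, short palindrome-like words that start with CA and end with TG. The E-boxes counted here are those with G or C in the middle, CAGCTG and CACCTG, the latter read as CAGGTG on the other strand.

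Optimal peaks fell at 4 of the 123 genes (3.25%), against 1.56% of all protein-coding genes. They were sre-41, sre-27 and sre-42, on chromosome II, and srab-8, on chromosome V. These genes are related and in part neighbours, so they are not independent draws. A summit was given to the gene with the nearest start among genes for which it lay between 2000 bp upstream and 500 bp downstream of the start. The sequences under these summits are shown because each of the 5 peaks held an E-box. Each covers 50 bases on either side of the pooled summit, is written 5′ to 3′ on the strand of the gene, and has its E-boxes in capitals. All were read from the WBcel235 RefSeq genome, the same assembly as ce11.

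sre-41, stronger peak, II:12387637-12387737, plus strand: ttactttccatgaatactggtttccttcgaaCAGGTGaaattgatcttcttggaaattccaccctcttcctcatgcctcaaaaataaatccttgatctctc
sre-41, weaker peak, II:12387836-12387936, plus strand: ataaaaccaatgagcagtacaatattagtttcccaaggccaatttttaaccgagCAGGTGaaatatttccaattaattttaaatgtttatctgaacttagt
sre-42, II:12386889-12386989, minus strand: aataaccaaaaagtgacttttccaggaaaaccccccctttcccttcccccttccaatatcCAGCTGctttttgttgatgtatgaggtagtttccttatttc
sre-27, II:12418157-12418257, minus strand: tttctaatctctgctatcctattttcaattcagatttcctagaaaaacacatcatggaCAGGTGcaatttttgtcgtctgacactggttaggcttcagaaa
srab-8, V:3176202-3176302, plus strand: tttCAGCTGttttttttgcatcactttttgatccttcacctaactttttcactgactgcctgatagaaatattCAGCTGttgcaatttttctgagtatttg
sre-20, V:12785002-12785102, minus strand: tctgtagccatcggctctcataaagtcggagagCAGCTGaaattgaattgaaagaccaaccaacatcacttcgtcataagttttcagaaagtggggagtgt

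The region at sre-20 is printed beside them as the strongest one at a member that fell outside the optimal set. E-boxes within 50 bp of the summit were found at 5 of 5 optimal peaks of the superfamily, against 49.7% of all optimal peaks and 4.6% of the lower-ranked regions, those ranked past 15000 that overlap no optimal peak. The sre-41 and sre-27 peaks held the CAGGTG form, read on the gene strand. The sre-42, srab-8 and sre-20 summits held CAGCTG, and srab-8 held 2 of them.

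sre-41 carried the strongest region of the superfamily. Its peak, at II:12387582-12387869, had pooled rank 3 and a signal value of 274.1, with its summit 593 bp before the gene start in intergenic sequence. In replicate 1 the overlapping region ranked 3 with a signal value of 117.1, and in replicate 2 it ranked 4 with 164.7. Both libraries thus placed it among their few strongest regions. The summits of both libraries lay within 6 bp of the pooled summit, and the centre of the CAGGTG word lay 16.5 bp from it. The gene itself spans II:12388280-12389858 on the plus strand.

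A weaker optimal peak of sre-41, at II:12387804-12387887, overlapped the stronger one at its edge, with a summit 394 bp before the start. It ranked 309 with a signal value of 60.7 after pooling, 406 with 24.0 in replicate 1 and 213 with 42.6 in replicate 2. Its summit lay in the same place in both libraries to within 3 bp, with a CAGGTG word 6.5 bp away. Both sre-41 summits therefore had the same E-box, followed in each by the bases aaat.

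The neighbour of sre-41 is sre-42, which lies on the minus strand at II:12384593-12386881, so the genes are divergent and share 1398 bp of intergenic sequence. Its own peak, at II:12386774-12387103, ranked 328 with a signal value of 58.1 after pooling, with a summit 58 bp before the start. It ranked 145 with 38.3 in replicate 1 and 783 with 23.2 in replicate 2. The replicates placed this peak less evenly than those of sre-41, and the replicate 2 summit lay 52 bp from the pooled one. Among the strongest regions of each replicate, as many as there are optimal peaks, it was present in replicate 1 and absent in replicate 2.

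The shared stretch between the divergent genes held 3 optimal peaks and 4 E-boxes. Counted from the sre-41 start, the E-boxes began 390, 612, 1009 and 1356 bp upstream. The pooled summits lay 394, 593 and 1341 bp upstream, next to the nearest, the next and the farthest of these words. The E-box at 1009 bp had no summit at it in the pooled list or in either replicate. The strongest summit lay 806 bp from the sre-42 start and 593 bp from the sre-41 start, so its assignment to sre-41 rests on distance alone.

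**Figure D1:**
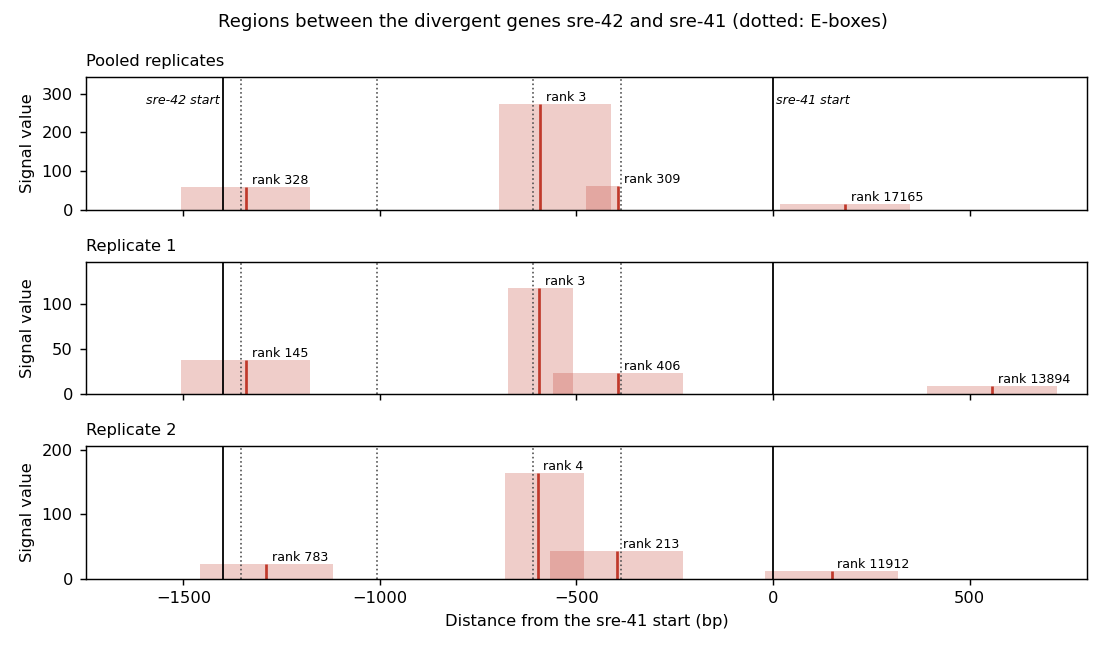
Regions between the divergent genes sre-42 and sre-41 in the pooled list and in each replicate. The horizontal axis is the distance from the sre-41 start in bp and the vertical axis the authors' signal value, which has its own scale in each panel; shaded boxes span the regions, red lines mark summits, dotted lines E-boxes and solid lines gene starts. The region 593 bp upstream ranked 3, 3 and 4 in the panels, and the E-box 1009 bp upstream has no summit beside it in any of them.

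sre-27 had the other leading peak. The peak, at II:12418096-12418285, ranked 8 in the pooled list with a signal value of 198.2. It ranked 9 in each replicate, with signal values of 83.8 and 117.8. The summit lay 593 bp upstream of the start, the same distance as at sre-41, with the CAGGTG word 10.5 bp away. The gene spans II:12415527-12417614 on the minus strand. A further, far weaker region ranked 5383 and had its summit in the coding sequence of sre-27, 217 bp downstream of the start, without an E-box.

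srab-8 was the only gene outside sre with an optimal peak. The peak, at V:3176189-3176353, ranked 56 in the pooled list with a signal value of 119.2, 42 with 60.5 in replicate 1 and 68 with 64.3 in replicate 2. Both libraries held it among their strongest regions. The gene spans V:3176461-3177978 on the plus strand, and the summit lay 209 bp before its start, between CAGCTG words that began 256 and 186 bp upstream. A weaker region 1202 bp upstream ranked 5626 after pooling and 1544 in replicate 2 and overlapped none in replicate 1.

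The order of the strongest member regions was the same in both replicates for sre-41, sre-27 and srab-8. It was not the same below them. The strongest regions of each replicate list, again as many as there are optimal peaks, were then assigned to genes. In replicate 1 the superfamily genes at them were sre-41, sre-27, sre-42 and srab-8, which is 4 genes (3.25%) against 1.57% of all genes. In replicate 2 they were 5 genes (4.07%) against 1.5%, with sre-45 and sre-47 in place of sre-42. The sre-45 region ranked 499 with a signal value of 28.0 in replicate 2 but 24424 with 7.57 in replicate 1. The sre-47 region ranked 496 with 28.1 in replicate 2, overlapped no region of replicate 1 and ranked 8572 in the pooled list. Only 38.8% of the 36-base words in the window around the sre-47 start occur once in the genome, the lowest share of any member, and its part in the rank was not tested.

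**Figure D2:**
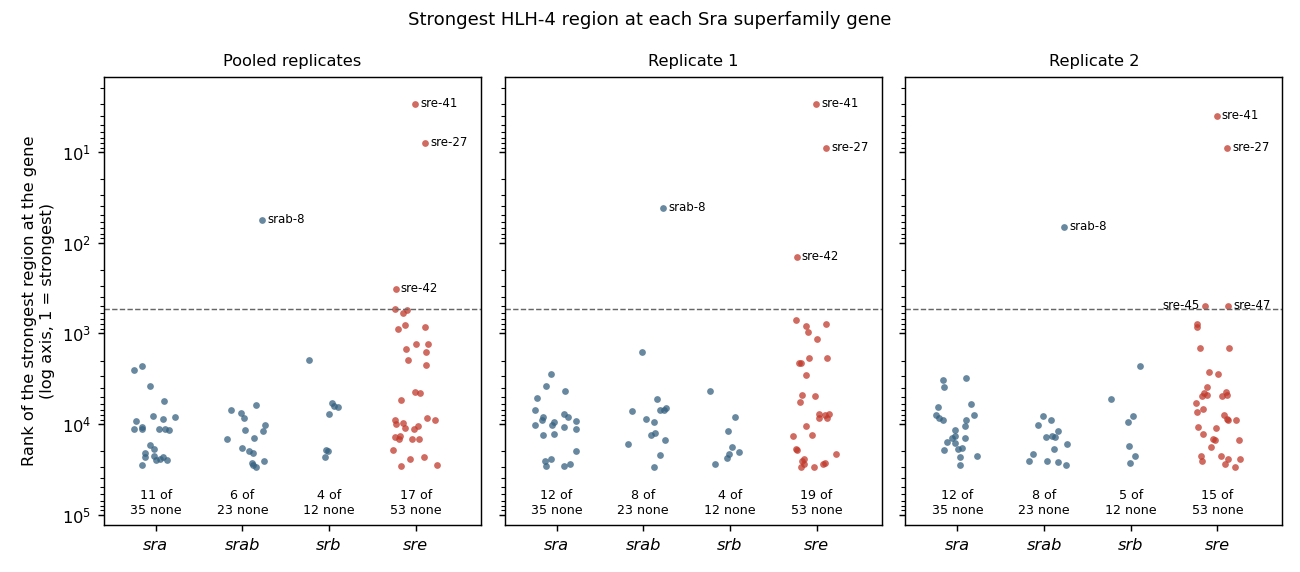
Rank of the strongest region at each of the 123 genes, by family, in the pooled list and in each replicate. The vertical axis is the rank on a log scale with 1 at the top, each point is a gene, the dashed line is the last rank of the optimal peaks, and the numbers at the foot count genes with no region. sre-41, sre-27 and srab-8 stand far above the dashed line in all 3 panels, whereas sra and srb genes lie below the dashed line in each.

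Below the optimal set, sre genes were present among regions of intermediate rank. Among the 2000 strongest pooled regions, 16 of the 123 genes (13%) had one, against 4.91% of all genes. These were 14 of 53 sre genes (26.4%), 1 of 12 srb genes (8.33%), 1 of 23 srab genes (4.35%) and 0 of 35 sra genes. In replicate 1 the corresponding count was 12 genes (9.76%) against 4.86% of all genes, of which 10 were sre and 2 srab. In replicate 2 it was 9 genes (7.32%) against 4.77%, of which 8 were sre and 1 srab. The sre share was above that of all genes in each list, and sra had no gene in any of them.

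sre-20 was the member just outside the optimal set. Its region ranked 547 with a signal value of 43.07, had its summit 91 bp before the start and held a CAGCTG word 14.5 bp from it. It ranked 707 with 19.4 in replicate 1 and 859 with 22.4 in replicate 2. sre-42, at rank 328, was the member just inside. The sre-20 region was the only member region of ranks 546 to 2000 that was also among the 2000 strongest in both replicates. Of the 12 member regions in those ranks, 9 were among the 2000 strongest in 1 replicate and 2 in neither, so most member regions of these ranks were among the 2000 strongest in fewer than both libraries.

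The next sre regions differed in where they lay. The sre-38 region ranked 561 with a signal value of 42.5 and had its summit 1949 bp upstream of sre-38, inside a coding exon of its neighbour sre-32, with a CAGCTG word. It ranked 959 in replicate 1 and 2680 in replicate 2. The sre-45 region ranked 597 with 40.7, lay 1224 bp upstream and held no E-box, and its replicate ranks, given above, lay far apart. Other genes of these ranks, named after their values were seen, include sre-53 at rank 822. Its summit lay 84 bp upstream and 0.5 bp from the centre of a CAGGTG word on the gene strand. sre-26 at rank 847 and sre-36 at rank 892 had their summits 365 bp and 1 bp upstream, with no E-box within 50 bp. Their replicate 1 summits lay 139 bp and 111 bp from the pooled ones. In replicates 1 and 2, sre-53 ranked 841 and 3957, sre-26 785 and 4779, and sre-36 2147 and 1457.

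The sra, srb and remaining srab genes had weak pooled regions. Among sra genes the strongest was at sra-31, at rank 2313 with a signal value of 25.5, which ranked 8304 in replicate 1 and 3875 in replicate 2. It was followed by sra-14 at rank 2555 and sra-2 at rank 3838, the latter with its summit in a pseudogene and no region in replicate 2. Among srb genes srb-18 led at rank 1974 with 26.5, and ranked 4387 and 5340 in the replicates. srb-15 at rank 5817 and srb-11 at rank 6337 followed, and the srb-15 summit lay in a coding exon of smg-1, a kinase gene of nonsense-mediated decay. After srab-8, the srab genes went on with srab-17 at rank 6228, srab-13 at rank 6984 and srab-10 at rank 7631. The srab-13 and srab-10 summits lay within the genes themselves. In ranks 2001 to 15000, 2 of 15 sra (13.3%), 1 of 12 srab (8.33%) and 0 of 6 srb regions held an E-box at the summit. Over all protein-coding genes 5.33% of regions in those ranks did.

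Members known from earlier work, listed from the sra and srb families only, had no strong region. No sre or srab gene was in this list. sra-6, whose promoter is widely used to mark the ASH nociceptors, had no pooled region and none in replicate 2, and ranked 10403 in replicate 1. sra-9, used as a marker of the ASK neurons, ranked 9196, and sra-11, used as a marker of the AIY interneurons, ranked 19078 with no region in replicate 1. sra-13, which has been studied in olfaction, had a region in replicate 1 only, at rank 9364. srb-6, which acts in nociceptive neurons including ASH and ADL, ranked 20064 after pooling, 11955 in replicate 1 and 17413 in replicate 2. srb-13 and srb-16, studied in sperm guidance, had no region in any list. The list thus includes a gene known from ADL without a strong region near its start.

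Counting regions of any strength, the families had similar shares. Such a region was assigned to 85 of 123 genes (69.1%), against 47.7% of all protein-coding genes. The pooled list holds peaks and background, with −log10 q-values down to 0.114, so a region in this count need not be a site of enrichment. The shares were 68.6% of sra, 73.9% of srab, 66.7% of srb and 67.9% of sre genes, and 38 genes had none. Among genes with a region, the best one had a median rank of 7021.5 in sre, 7180.5 in srb, 11391.5 in sra and 14235 in srab, against 12455.5 over all genes. With a narrower window, 1000 bp upstream to 200 bp downstream, 54 genes (43.9%) had a region of any strength, against 32% of all genes. There the shares were 34.3% of sra, 39.1% of srab, 33.3% of srb and 54.7% of sre genes, so the similarity of the families holds for the wider window.

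1 optimal peak lay within reach of a member but nearer to another gene. The peak at II:13722592-13722713, rank 91 and signal value 103.3, lay 1341 bp upstream of sre-46 and 348 bp upstream of Y54G9A.5. It ranked 65 in replicate 1 and 113 in replicate 2 and held an E-box. Counted for every gene in reach, it brought the superfamily to 5 genes with an optimal peak (4.07%), of which 4 were sre, against 2.23% of all genes counted in that way. Under the nearest-start rule, sre-46 had no region in the pooled list or in replicate 1, and 1 at rank 24336 in replicate 2.

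The sre genes are not spread evenly over the genome. Chromosome II held 32 of the 53, chromosome V 12, chromosome IV 7 and chromosome I 2. The largest run of members, with neighbouring starts at most 50000 bp apart, lay at II:12303525-12467533 and held 21 sre genes among 44 protein-coding genes. All 3 sre genes with an optimal peak were in it. Extended by 2000 bp on each side, the stretch of sre genes held 54 pooled regions, of which 4 were optimal and 13 were among the 2000 strongest. The whole pooled list holds 30000 regions, 2000 of them in that upper set, and the optimal peaks lie before rank 546. Of those 13, 8 held an E-box at the summit, the 4 optimal peaks among them. An E-box lay at 49.7% of all optimal peaks. In ranks 546 to 2000 it lay at 15.6% of the regions assigned to protein-coding genes. Some of the regions in the stretch were assigned to other genes in the run, and 10 of the 13 to sre genes.

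Other runs of members were shorter. A run of 6 srab genes at V:3139931-3177978 held the srab-8 peak. The runs of 8 sra genes at II:9520200-9550818 and of 8 sra genes at I:12686116-12706983 had no region among the 2000 strongest, and neither did 6 srb genes at II:5148530-5171032. On chromosome IV, 5 sre genes at IV:12227717-12261453 likewise had none, whereas a pair of srb genes at V:7515239-7520177 had 1, at srb-18. With so few genes in a run, a count of 0 is little different from the 4.91% of all genes. By chromosome, the 2000 strongest regions reached 10 of 32 sre genes on II, 2 of 12 on V, 0 of 7 on IV and 2 of 2 on I. Over all protein-coding genes of those chromosomes the shares were 4.49%, 5.19%, 5% and 4.31%.

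**Figure D3:**
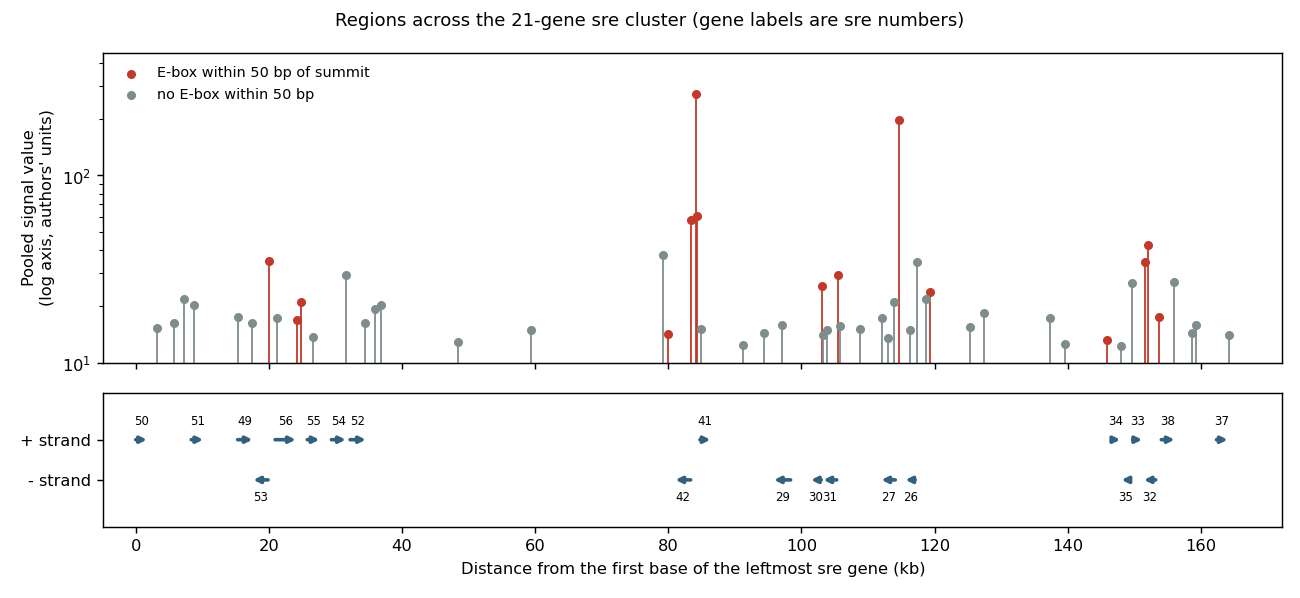
Pooled regions across the run of 21 sre genes on chromosome II. The horizontal axis is the distance from the first base of the leftmost sre gene in kb; the upper panel gives the authors' signal value on a log axis for each region, in red where an E-box lies within 50 bp of the summit, and the lower panel the sre genes by strand and number. The regions at sre-41 (274.1) and sre-27 (198.2) stand above all the others.

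E-boxes were then counted before gene starts, whether or not a region lay there, and sre had the highest share of the 4 families. An E-box lay in the 300 bp before the start of 29 of 53 sre genes (54.7%), against 12.5% of all protein-coding genes. It lay there at 3 of 35 sra (8.57%), 3 of 23 srab (13%) and 3 of 12 srb genes (25%). Within 1000 bp, the shares were 71.7% of sre, 28.6% of sra, 17.4% of srab and 58.3% of srb genes, against 34.6% of all genes. This count uses the genome sequence alone. Tandem relatives can share sequence by descent, so the 29 genes are not independent.

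Most E-boxes before sre genes lay in a narrow range of positions. Of the 37 E-boxes in those 300 bp, 27 (73%) began 51 to 125 bp upstream of the start, against 33.9% of the E-boxes before all genes and 1 of 10 before sra, srab and srb genes. The median was 87 bp upstream in sre and 140 bp over all genes. Among the 37, 13 read CAGCTG and 24 were of the CACCTG class. Of these 24, 19 (79.2%) read CAGGTG on the strand of the gene, against 42.2% over all genes. The base after CAGGTG was A in 15 of 19 (78.9%) and in 36.2% over all genes, a feature noticed after the sequences were seen.

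The proximal E-boxes are shown so that this pattern can be read. They are sre E-boxes that read CAGGTG on the gene strand less than 100 bp upstream, a choice made after the sequences were seen, and those from the large run on chromosome II come before the others. Each line gives 30 bases with the E-box in capitals, on the gene strand, from the WBcel235 RefSeq genome.

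sre-26, II:12420649-12420678, minus strand: agtatcgccaaaCAGGTGaaatcagaaaat
sre-29, II:12401939-12401968, minus strand: aaaagttcagcgCAGGTGatctgcgatatt
sre-30, II:12406547-12406576, minus strand: tatactaaatgaCAGGTGtttcataagcct
sre-34, II:12450067-12450096, plus strand: accaaacaaaggCAGGTGatttgtgttgaa
sre-35, II:12452908-12452937, minus strand: gacgaataagagCAGGTGatttattgcatc
sre-53, II:12323475-12323504, minus strand: acgtgactccgaCAGGTGaacttcccgaat
sre-40, II:4683816-4683845, minus strand: ttttctgtagagCAGGTGaaatgatcagtc
sre-43, II:13969145-13969174, minus strand: cgcgagcagcagCAGGTGaaattgaaattt
sre-44, II:13949496-13949525, plus strand: aggtgactcgggCAGGTGataataatctgc
sre-47, II:13984700-13984729, minus strand: aatccgagcaagCAGGTGtcatttttcagg
sre-21, V:17773266-17773295, minus strand: ctcacgccaaaaCAGGTGattaattttttt
sre-24, V:2884607-2884636, plus strand: catgagtcaaaaCAGGTGaatttactagcc
sre-28, V:9944314-9944343, plus strand: aaaacaggagagCAGGTGaaaatcaaagat

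These E-boxes began between 40 bp upstream, at sre-40, and 92 bp upstream, at sre-24. The base just before the E-box is A or G at every gene shown, and an A follows it at all but sre-30 and sre-47. The bases before it are agag at sre-28, sre-35 and sre-40 and differ more among the others. sre-34 and sre-35 are neighbours on opposite strands whose E-boxes began 70 and 71 bp upstream, both followed by attt. Each of them also held a CAGCTG word farther out, at 115 and 116 bp.

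**Figure D4:**
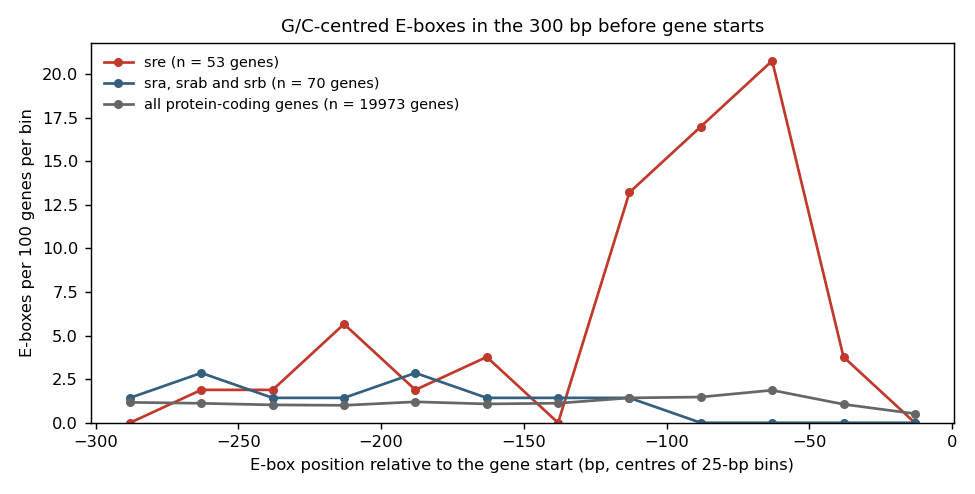
E-boxes in the 300 bp before gene starts, by position. The horizontal axis is the E-box position relative to the gene start in bp, in bins of 25 bp, and the vertical axis the number of E-boxes per 100 genes in a bin, for sre genes, for sra, srab and srb genes together, and for all protein-coding genes. The sre line reaches 20.8 per 100 genes at 51 to 75 bp upstream, where the line of all genes is at 1.87.

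A longer word, CAGGTGAAA on either strand, was searched after the sequences around these E-boxes and under the sre-41 summits had been seen, so both were part of its choice. It lay in the 300 bp before 5 of 53 sre genes (9.43%), sre-3, sre-26, sre-28, sre-40 and sre-43, against 0.831% of all protein-coding genes, and in each of the 5 on the gene strand. Within 1000 bp it lay before 11 sre genes (20.8%), against 1.75% of all genes. No sra gene held it within 1000 bp, and 1 srab and 1 srb gene did. The word also lay within 50 bp of 8.81% of all optimal summits and of 0.187% of lower-ranked summits.

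Most of these proximal E-boxes were not at a region. A pooled summit lay within 50 bp of 8 of the 37 sre E-boxes (21.6%), against 8.57% of such E-boxes before all genes. An optimal summit lay within 50 bp of 1 of the 37 (2.7%), at sre-42, against 2.6% before all genes. The 8 E-boxes with a summit were at sre-6, sre-20, sre-30, sre-31, sre-42, sre-44, sre-47 and sre-53. The share at optimal peaks was thus close to the background.

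Strong regions were found at sre genes with and without a proximal E-box. Of the 29 genes with an E-box in the 300 bp before the start, 8 were at the 2000 strongest regions, 1 had an optimal peak and 9 had no pooled region. Of the 24 without one, the counts were 6, 2 and 8. sre-41 and sre-27 were both among the 24, since the E-boxes at their summits lay farther than 300 bp from the start. On chromosome IV, none of the 7 sre genes had an E-box within 1000 bp, 6 had a region of some strength and none was among the 2000 strongest.

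Regions at sre genes held E-boxes at every rank. Of sre regions of rank 546 to 2000, 4 of 11 (36.4%) had an E-box within 50 bp of the summit, against 15.6% of the regions assigned to any protein-coding gene. In ranks 2001 to 15000 the counts were 8 of 23 (34.8%) against 5.33%, and past rank 15000 they were 5 of 14 (35.7%) against 4.65%. Over all genes the share fell with rank, while among sre regions below the optimal set it stayed near a level. In the last range, where sra had 0 of 17, srab 1 of 10 and srb 0 of 4, the values of the other families lay nearer to those of all genes. E-boxes were also frequent in sre upstream sequence, as given above, and the part of that in these shares was not tested. The next highest upstream share was that of srb, 25% in 300 bp. In ranks 2001 to 15000, 0 of 6 srb regions held an E-box, against 5.33% over all genes, a count too small to compare.

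**Figure D5:**
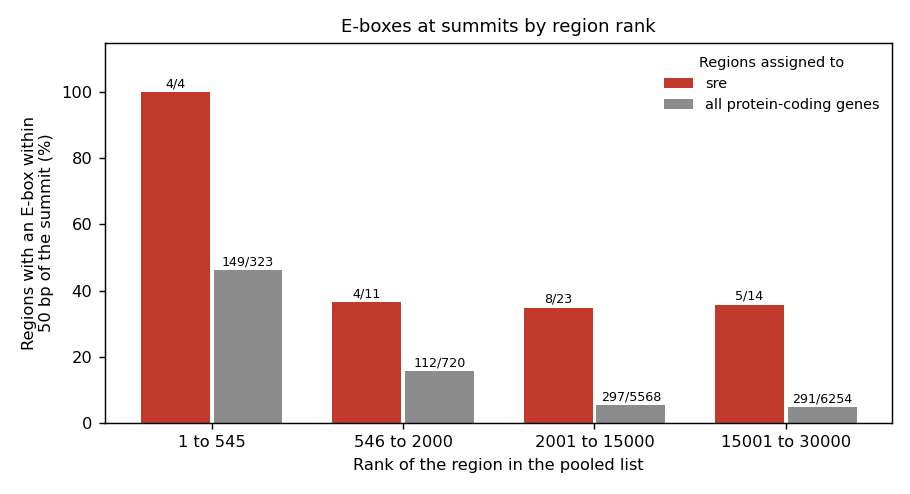
Share of regions with an E-box within 50 bp of the summit, by rank in the pooled list, for regions assigned to sre genes and to all protein-coding genes. The vertical axis is in percent and the numbers above the bars count regions with an E-box of all regions in the bin. The sre bars stay between 34.8% and 36.4% in the 3 lower bins, where those of all genes fall from 15.6% to 4.65%.

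How well short sequences can be placed differed little between the families. In the windows around gene starts, the median share of 36-base words that occur once in the genome was 99.96% in sra, 99.84% in srab, 100% in srb and 98.5% in sre, against 100% over all genes. Under 90% were 5 sra (14.3%), 3 srab (13%), 1 srb (8.33%) and 6 sre genes (11.3%), against 15.7% of all genes. The srab-8 window was among them, with 86.4%. The read length is not stated.

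The other large chemoreceptor superfamilies give a scale for these counts. Optimal peaks were assigned to 28 of 587 Str genes (4.77%), 8 of 309 Srg genes (2.59%) and 11 of 289 genes of the solo families (3.81%), beside 3.25% of the Sra superfamily. The 2000 strongest regions reached 8.86%, 5.5% and 7.96% of those genes, beside 13% of the Sra superfamily. E-boxes in the 300 bp before the start were found at 32.9%, 15.2% and 33.6%, beside 30.9%. The Sra superfamily as a whole thus lay within the range of the others for optimal peaks and E-boxes and above it for the 2000 strongest regions. The single families of Str, Srg and solo were not counted, so sre was not compared with them.

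Genes that act with chemoreceptors were looked at in the same way. Of 28 genes for receptor trafficking, G proteins, channels and regulators, 22 (78.6%) had a region of some strength, against 47.7% of all protein-coding genes. An optimal peak fell at 1 gene (3.57%), against 1.56%. That gene was osm-9, which encodes a TRPV channel subunit used in ADL and other sensory neurons, at rank 420 with a signal value of 50.3. It ranked 299 in replicate 1 and 836 in replicate 2, with the summit 228 bp upstream of the start and an E-box beside it. Among G protein genes, gpa-1 ranked 827, but 11076 in replicate 1 and 362 in replicate 2. gpa-3 ranked 904, odr-3 ranked 1067, and gpa-11 ranked 1290 with 536 and 1245 in the replicates. All of these but odr-3 held an E-box at the summit. Other genes of the list did not, among them ocr-1 at rank 1772, ocr-2 at rank 20478 and gpa-15 at rank 29632. ocr-2 had no region in replicate 2, and qui-1 had no pooled region. odr-4 and odr-8, which help chemoreceptors reach the cilia, had only weak regions, at ranks 16008 and 23837.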

How the data were processed

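The authors' lists for ce11 were used: regions of each replicate, regions of the pooled replicates and optimal peaks. Per the submitters' deposited descriptions, the region lists hold peaks and background as input for the irreproducible discovery rate step, which gave the optimal peaks. Aligner, caller, their versions: not given in the sources used here. Each deposited region has a signal value of unstated normalization, used to rank regions within 1 list. The deposited −log10 q-value (1.36 to 2.32 over the optimal peaks) selected nothing. The deposited summit offset gave the summit, and positions were written 1-based. The ce10 lists were not used.

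Gene starts came from Ensembl release 115 and sequence from the WBcel235 genome. G/C-centred E-boxes on either strand were sought within 50 bp of summits and in the 300 and 1000 bp before starts. Lower-ranked regions were 14976 regions ranked past 15000. Uniqueness was counted as words of 36 bases found once in the genome, over 2000 bp upstream to 500 bp downstream of a start. Scripts ran in Python 3.11.15 with numpy 2.4.6 and pandas 2.3.3 and were tested on simulated data. The genes named are those with an optimal peak, the 3 next by signal in each family, textbook members, and genes sharing a peak with a member. Others were named after their values were seen. The members and lists were chosen with earlier results of these data known. Alternatives covered the window, the assignment, transcript starts, stricter peaks, each replicate left out, the E-box window, the overlap and the word length. 2 sequences that met the rule for the proximal E-boxes shown are not reported here.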

Additional observations from a re-analysis of the deposited data

How the results depend on the processing

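The count of genes with an optimal peak, 4, ranged from 3 to 5 over the alternatives, that of sre genes, 3, from 2 to 4, and that of the other families was 1 in each. Leaving out 1 replicate meant taking the strongest regions of the other, as many as there are optimal peaks, in place of the optimal peaks. That gave 4 to 5 genes in all, 3 to 4 sre genes, and 80 to 83 genes with a region of any strength, against 85. The genes were not all the same, since sre-42 gave way to sre-45 and sre-47 in replicate 2. Genes with a region of any strength fell to 54 when the window was 1000 bp upstream to 200 bp downstream, which covers fewer summits by construction. Restricted to the upper part of the optimal peaks by signal value, the set held 3 member peaks, and all 3 held an E-box, against 5 of 5 in the full set. Among the strongest regions of each replicate, 5 of 5 member regions held one in replicate 1 and 4 of 6 in replicate 2. The share over all the strongest regions of each replicate was not counted. With an E-box window of 25 bp the count at the optimal peaks of members was 4 of 5. The share of member start windows made of words found once was 95.1% with 36 bases and 96.3% with 50. No paired analysis was possible because both libraries belong to 1 group. With 2 replicates, no read counts and no control library analysed here, neither depth nor input bias in these windows could be measured. Many member regions outside the optimal set differed widely in rank between the replicates, though sre-20, at 707 and 859, did not. The strongest regions near the start of hlh-4, which had an optimal peak, also differed, at 4178 and 178.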
